A study of Lytechinus variegatus with 23 samples.

Results

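Cilia are built and kept by intraflagellar transport (IFT), in which protein trains carry cargo along the axoneme. IFT-B complexes go with kinesin-2 towards the tip, IFT-A complexes go with dynein-2 back to the base, the BBSome moves membrane proteins on the trains, and the transition zone at the ciliary base gates what enters. Sea urchin embryos become ciliated at the blastula stage and later bear a ciliary band. The genes described here are those whose matched Strongylocentrotus purpuratus symbol in the deposited table is that of an IFT, BBSome, small GTPase, dynein-2 or transition zone gene. They are 55 of the 27231 gene IDs of the table and carry 39 symbols. No sequences or positions are given for them.

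Whole Lytechinus variegatus embryos were exposed to alizarin red, a dye that binds calcium mineral, or were untreated controls, and their mRNA was sequenced after 12, 18, 24 and 30 hours of development (hpf, hours post fertilisation). Groups hold replicates A, B and C, except alizarin at 18 hpf with B and C only, which makes 23 libraries. The title names skeletal patterning, biomineralization and catalase as the subject. The labels give neither the dose nor the start of the exposure, nor what replicates with the same letter share. A p-value here sets a difference against how far libraries lie apart within groups, and some of that may be technical. That spread is pooled over all 8 groups of time and treatment, rather than taken from the groups compared. The libraries hold 8194215 to 11730004 counts. Markers of skeletogenic, endodermal, pigment, ectodermal and blastocoelar cells were detected at every time, as a whole embryo should show, and MyoR2, a muscle gene, was at or below 1.05 CPM in both groups at 12 and 18 hpf and with alizarin at 24 hpf.

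By role, the 55 IDs are 12 of IFT-B (Ift20, Ift52_1, Ift57_1, Ift74, Ift80L1, Ift81h, Ift88_1, Ift172_2, Ttc26, Ttc30b), 7 of IFT-A (Ift122Ap, Ift122h, Ift140, Wdr19_2, Wdr35), 4 of dynein-2 (all Wdr60) and 13 of the BBSome with its chaperonins (Bbs1, Bbs2, Bbs4 to Bbs9, Bbs10L). A further 6 are small GTPases (Arl3 and Arl6 among them), 12 belong to the transition zone (B9d2, Cc2d2_2, Cep290, Mks1L, Rpgr, Rpgrip1L and Tctn2 among them), and 1, Arl6ip4L, is matched by name and is not known as ciliary. A symbol is held by more than 1 ID in 13 cases, which takes in 29 IDs. The 29 may be copies or pieces of 1 gene, and the reads of near-identical copies may be split between them. Where a symbol has several IDs, the ID is given beside it.

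Levels are CPM, counts scaled to the depth of each library, with TMM scaling (trimmed mean of M values), and they carry no gene length, so they are not compared between genes. Differences are log2 fold changes with their standard error (SE) from edgeR's quasi-likelihood test over 18419 genes, and a gene is called at a Benjamini-Hochberg adjusted p under 0.05. The test took in 53 of the 55. Bbs10L had 0 counts in every library and Wdr60 L_var_11961 had 19 counts in all, and both were left out of it.

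At 24 and 30 hpf, the transcripts that were lower with alizarin belonged to the transport trains: Ift172_2 at both times, and Wdr19_2 and Wdr35 at 30 hpf. Of all genes, 0.722% were called lower at 24 hpf and 2.2% at 30 hpf. None of the 53 passed the test at 12 or 18 hpf, where 0.0977% and 0% of all genes did. Bbs7 L_var_00704 was the 1 member of 53 that was higher when the 4 times were averaged, where 2.11% of all genes were. In controls alone, 3 of the 53 (Ift172_2, Wdr19_2 and Cep290) rose between 18 and 24 hpf, beside 4.02% of all genes. Of these, Cep290 did not pass the test between alizarin and control at 24 or 30 hpf. The rise in controls and the alizarin difference at 24 hpf use the same control libraries of 24 hpf, so they are not independent. For Wdr19_2 and Cep290 the rise also depended on single libraries.

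**Figure D1:**
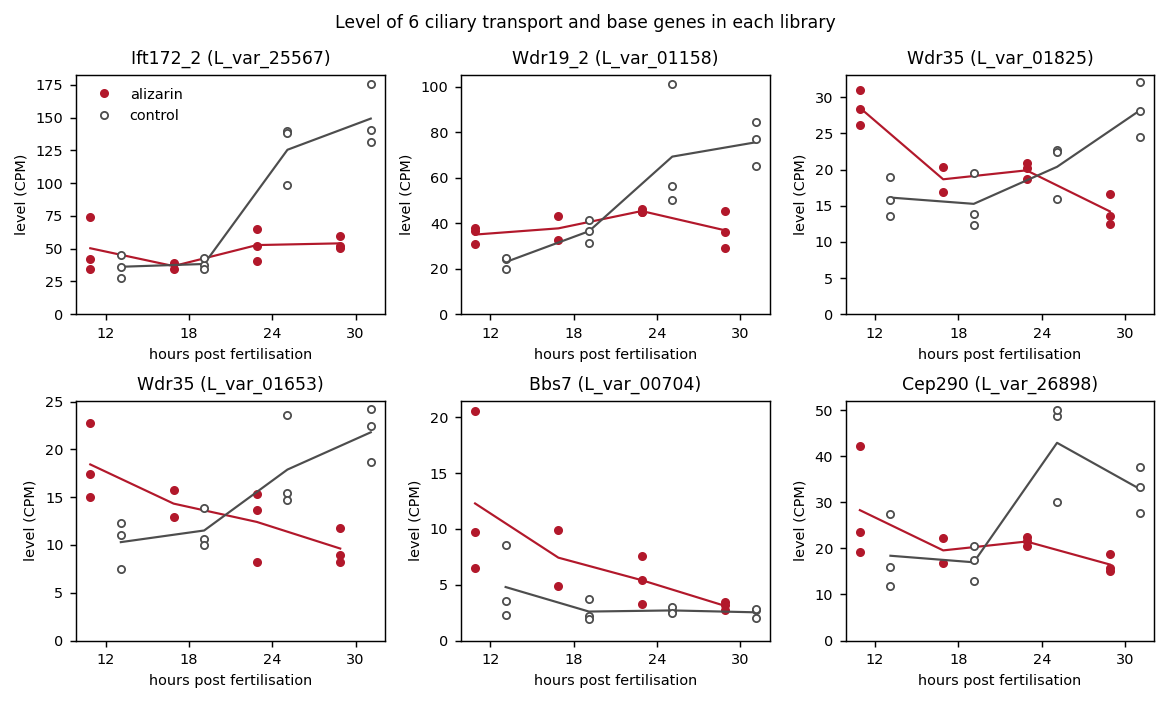
CPM of 6 members in every library (y axis) by time in hpf (x axis), alizarin left of control at each time. Points are libraries and lines join group means. Ift172_2 with alizarin lies below every control library at 24 and 30 hpf and overlaps the controls at 12 and 18 hpf.

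Ift172_2 (L_var_25567) matches IFT172, the largest IFT-B protein, which is known from other species to act in the turnaround of trains at the ciliary tip. At 24 hpf it had 52.4, 40.9 and 65.1 CPM with alizarin, against 98.4, 140 and 138 CPM in controls. At 30 hpf it had 52, 60 and 50.3 CPM with alizarin, against 132, 176 and 141 CPM in controls. All alizarin libraries were below all controls at both times. The fold change was -1.25 on the log2 scale at 24 hpf (SE 0.27, edgeR adjusted p = 0.0324) and -1.46 at 30 hpf (SE 0.27, edgeR adjusted p = 0.00617).

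At the earlier times the same gene did not separate the groups. At 12 hpf it had 74.1, 42.2 and 34.7 CPM with alizarin, against 45.4, 35.9 and 27.3 CPM in controls. At 18 hpf it had 39.3 and 34.2 CPM with alizarin, against 37.9, 34.2 and 43 CPM in controls. The groups overlapped at both times, and the effect of alizarin differed between the 4 times (edgeR quasi-likelihood F test over 3 contrasts, adjusted p = 0.0402). Averaged over the times, Ift172_2 was lower with alizarin by -0.58 on the log2 scale (SE 0.14, edgeR adjusted p = 0.0203).

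The call of Ift172_2 at 30 hpf held when any 1 of the 6 libraries was left out, with adjusted p between 0.0170 and 0.0428. The call at 24 hpf was lost without alizarin A (adjusted p = 0.148), alizarin B (0.173), control B (0.163) or control C (0.106). The call on the mean of the times was lost without alizarin 18 hpf B (0.0544) or C (0.0623), and the call on the difference between times was lost in 16 of 23 such fits, with adjusted p up to 0.102.

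The other IFT-B members mostly lay lower with alizarin at 30 hpf without passing the test. The median log2 fold change of the 12 IDs was -0.43 at 30 hpf, and 11 of the 12 estimates were below 0. The exception was Ift20, which in mammals also sits at the Golgi, with 19.2, 28.8 and 31.0 CPM with alizarin against 20.1, 15.2 and 22.5 CPM in controls. At 12, 18 and 24 hpf the IFT-B medians were 0.25, 0.08 and -0.25.

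Ift80L1, another IFT-B subunit, had 154, 155 and 153 CPM with alizarin at 30 hpf, against 216, 195 and 214 CPM in controls. Ift57_1, which in other species joins the IFT-B parts that bind kinesin-2, had 96.7, 120.6 and 103 CPM with alizarin at 30 hpf, against 149, 141 and 160.4 CPM in controls. Neither pair of groups overlapped, and neither gene passed the test, with log2 fold changes of -0.44 (SE 0.30, edgeR adjusted p = 0.510) for Ift80L1 and -0.49 (SE 0.25, edgeR adjusted p = 0.323) for Ift57_1. The same held for both IDs of Ift88_1, the orthologue of the mouse Polaris gene: L_var_09051 had 40.0, 63.3 and 49.0 CPM with alizarin at 30 hpf, against 68.5, 65.9 and 74.1 CPM in controls (log2 fold change -0.45, SE 0.23, edgeR adjusted p = 0.337).

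Ift81h L_var_24605 matches IFT81, which with IFT74 is known to bind tubulin. At 12 hpf it had 51.7, 65.0 and 66.1 CPM with alizarin, against 35.4, 34.9 and 27.6 CPM in controls. The groups did not overlap, and the gene had the smallest p of the 53 at that time, with a log2 fold change of 0.90 (SE 0.21, edgeR adjusted p = 0.0693). At 24 and 30 hpf its estimates were -0.24 and -0.36. The second Ift81h ID, L_var_24608, gave 0.16 at 12 hpf (SE 0.22, edgeR adjusted p = 0.755), so the IDs of that symbol were not alike in size.

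**Figure D2:**
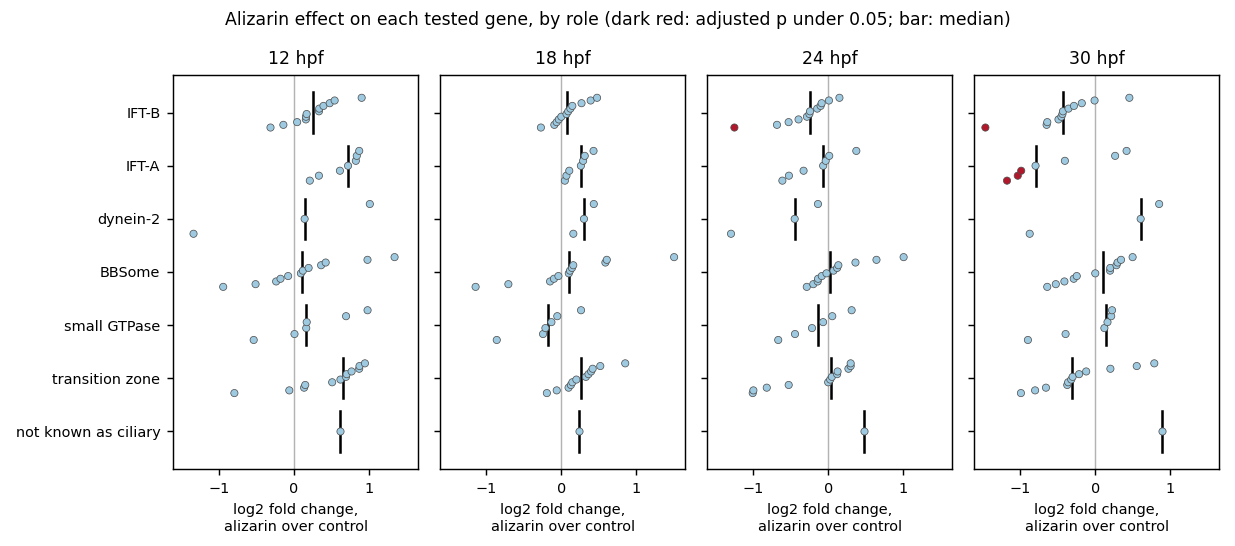
Log2 fold change of alizarin over control (x axis) for each of the 53 members tested, by role (y axis), in 1 panel per time. Dark red points passed the test and black bars are medians over the IDs of a role: the 7 IFT-A points all lie above 0 at 12 hpf, and 3 of them are called lower at 30 hpf.

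Among IFT-A genes, 3 of the 7 IDs fell at 30 hpf, where 2.2% of all genes were called lower, and the median log2 fold change of the 7 was -0.80. Wdr19_2 (L_var_01158) matches WDR19, also named IFT144, a core subunit of IFT-A. It had 29.3, 45.4 and 36.0 CPM with alizarin at 30 hpf, against 65.3, 76.9 and 84.5 CPM in controls. The groups were apart, and the log2 fold change was -1.03 (SE 0.25, edgeR adjusted p = 0.0291). At 24 hpf it had 46.3, 44.9 and 45.0 CPM with alizarin, against 50.1, 56.5 and 101 CPM in controls, where control C lay far above the others. That difference of -0.61 did not pass the test (SE 0.25, edgeR adjusted p = 0.326), and it was -0.23 without control C.

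Wdr35 matches WDR35, also named IFT121, which is needed for IFT-A assembly in mammals, and 3 IDs carry the symbol. Wdr35 L_var_01825 had 12.5, 13.6 and 16.6 CPM with alizarin at 30 hpf, against 28.0, 24.5 and 32.1 CPM in controls (log2 fold change -0.99, SE 0.23, edgeR adjusted p = 0.0242). Wdr35 L_var_01653 had 8.95, 11.7 and 8.19 CPM with alizarin, against 24.2, 22.4 and 18.7 CPM in controls (log2 fold change -1.18, SE 0.29, edgeR adjusted p = 0.0318). The third, Wdr35 L_var_01654, had 1.12, 2.39 and 2.69 CPM with alizarin, against 3.46, 3.27 and 4.17 CPM in controls, and did not pass the test (-0.80, SE 0.42, edgeR adjusted p = 0.357). In all 3 the alizarin libraries lay below the controls. If they are pieces of 1 gene, the called IDs are not independent of each other.

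At 12 hpf the same IDs lay on the other side. Wdr35 L_var_01825 had 26.1, 28.4 and 31.1 CPM with alizarin, against 15.8, 13.6 and 19.0 CPM in controls (log2 fold change 0.82, SE 0.23, edgeR adjusted p = 0.109). Wdr35 L_var_01653 had 15.0, 17.5 and 22.8 CPM with alizarin, against 12.3, 11.0 and 7.54 CPM in controls (0.84, SE 0.29, edgeR adjusted p = 0.168). The alizarin libraries were above the controls in both, without a call. The effect on L_var_01825 differed between the 4 times by edgeR's F test (adjusted p = 0.0457), while L_var_01653 (0.0667) and Wdr19_2 (0.0953) did not pass it.

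Most of these IFT-A calls at 30 hpf were lost when 1 library was left out. Wdr35 L_var_01653 was not called without any 1 of them (adjusted p 0.0576 to 0.1504), nor with replicate letters as a block within each time (0.0696). Wdr19_2 was called without alizarin B (0.0468), and without each other library its adjusted p was 0.0592 (control A), 0.0859 (control B), 0.109 (control C), 0.114 (alizarin C) and 0.121 (alizarin A). Wdr35 L_var_01825 was called without control B (0.0420), and otherwise had 0.0527 (alizarin C), 0.0813 (control A), 0.0940 (alizarin A), 0.0988 (alizarin B) and 0.104 (control C). Its call on the difference between times held in 4 of 23 fits that left out 1 library, with adjusted p up to 0.134.

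The other IFT-A IDs did not all lie lower. Ift122Ap (L_var_05755) had 77.1, 112 and 94.1 CPM with alizarin at 30 hpf, against 83.9, 70.2 and 81.3 CPM in controls. Ift122h (L_var_05756), a neighbour in ID number with a symbol of the same subunit, had 32.6, 42.2 and 44.4 CPM with alizarin, against 28.4, 31.7 and 29.2 CPM in controls. Both estimates were above 0, at 0.26 (SE 0.28, edgeR adjusted p = 0.708) and 0.42 (SE 0.28, edgeR adjusted p = 0.5), and neither passed the test. Ift140, another core subunit, gave -0.41 (SE 0.30, edgeR adjusted p = 0.558).

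For dynein-2, the motor of the return path, the rule found only Wdr60, the symbol of an intermediate chain. Wdr60 L_var_05738 had 4, 5.93 and 5.13 CPM with alizarin at 30 hpf, against 3.25, 3.92 and 2.74 CPM in controls (log2 fold change 0.60, SE 0.50, edgeR adjusted p = 0.609). Wdr60 L_var_15966 had 1.92, 2.85 and 2.81 CPM with alizarin at that time, against 5.04, 3.70 and 5.24 CPM in controls (-0.87, SE 0.63, edgeR adjusted p = 0.536). The third tested ID, Wdr60 L_var_06125, had 4.80, 4.67 and 4.03 CPM with alizarin at that time, against 2.73, 2.94 and 1.79 CPM in controls. The alizarin libraries were above the controls in the first and the third and below them in the second. The estimates of IDs of 1 symbol thus differed in sign without passing the test, and the difference between these IDs was not tested.

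The BBSome showed no call at any single time. Its median log2 fold change over 12 tested IDs was 0.10, 0.11, 0.02 and 0.10 at 12, 18, 24 and 30 hpf. Bbs2 L_var_07323, a subunit of the BBSome core, had 69.4, 57.4 and 77.6 CPM with alizarin at 30 hpf, against 73.8, 86.3 and 89.2 CPM in controls (-0.29, SE 0.25, edgeR adjusted p = 0.620). Bbs4 L_var_03721, a subunit known to bind pericentriolar proteins, had 13.0 and 10.8 CPM with alizarin at 18 hpf, against 23.4, 15.1 and 40.5 CPM in controls (-1.14, SE 0.51, edgeR adjusted p = 0.823). All alizarin libraries of Bbs4 lay below the controls at 18 hpf, where the controls spread widely.

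Bbs7, another core subunit, stood apart within the BBSome. Bbs7 L_var_00704 had 6.54, 20.5 and 9.76 CPM with alizarin at 12 hpf, against 8.59, 3.50 and 2.29 CPM in controls. It had 9.92 and 4.93 CPM with alizarin at 18 hpf, against 3.72, 2.16 and 1.91 CPM in controls, and 5.42, 7.55 and 3.25 CPM with alizarin at 24 hpf, against 2.65, 3 and 2.45 CPM in controls. At 30 hpf it had 2.72, 3.42 and 3.18 CPM with alizarin, against 2.73, 2.83 and 2.02 CPM in controls. The groups were apart at 18 and 24 hpf and overlapped at 12 and 30 hpf.

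The log2 fold changes of Bbs7 L_var_00704 were 1.34, 1.5, 1 and 0.3 in order of time, none called alone, and their mean was 1.04 (SE 0.25, edgeR adjusted p = 0.0184). That call was lost without alizarin 18 hpf B (adjusted p = 0.0836) and held when any of the other 22 libraries was left out. The second ID, Bbs7 L_var_00724, had 14.7, 41.4 and 26.5 CPM with alizarin at 12 hpf, against 13.6, 13.6 and 14.7 CPM in controls (0.98, SE 0.31, edgeR adjusted p = 0.148). Alizarin B was the highest library of both Bbs7 IDs at 12 hpf, and without it the estimate for L_var_00724 was 0.56. Its mean over the times was 0.47 (SE 0.16, edgeR adjusted p = 0.0915).

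No small GTPase was called at any time, over 6 IDs with medians of 0.17, -0.17, -0.14 and 0.14 at 12, 18, 24 and 30 hpf. Arl3 L_var_20228, the GTPase that releases lipidated cargo inside the cilium, overlapped between the groups at every time. It had 63.1, 108 and 58.6 CPM with alizarin at 12 hpf, against 108, 62.4 and 58.7 CPM in controls. Its log2 fold changes lay between -0.05 and 0.22 over the 4 times (SE 0.27 to 0.30), none of them called. Arl6ip4L, the ID not known as ciliary, had 4.64, 3.08 and 3.06 CPM with alizarin at 30 hpf, against 1.47, 2.50 and 1.79 CPM in controls (0.89, SE 0.48, edgeR adjusted p = 0.366).

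In the transition zone, Cep290 (L_var_26898) matches CEP290, which ties the ciliary membrane to the microtubules there. At 24 hpf it had 22.5, 20.4 and 21.6 CPM with alizarin, against 30.0, 48.6 and 50.1 CPM in controls. At 30 hpf it had 15.7, 18.8 and 15.0 CPM with alizarin, against 33.3, 37.6 and 27.6 CPM in controls. The groups were apart at both times, and neither difference passed the test, at -1 (SE 0.32, edgeR adjusted p = 0.169) and -0.99 (SE 0.32, edgeR adjusted p = 0.0988). With replicate letters as a block within each time the 30 hpf difference was called (adjusted p = 0.0426), as it was by DESeq2 (0.0429) and in an edgeR fit of only the 2 groups of that time (0.0171).

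Rpgrip1L, a scaffold of the transition zone, has 2 IDs. Rpgrip1L L_var_04061 had 33.6, 25.1 and 20.1 CPM with alizarin at 12 hpf, against 14.8, 15.8 and 10.4 CPM in controls (0.94, SE 0.28, edgeR adjusted p = 0.120). Rpgrip1L L_var_04062 had 10.7, 13.4 and 8.38 CPM with alizarin at 12 hpf, against 4.93, 8.17 and 6.05 CPM in controls (0.77, SE 0.30, edgeR adjusted p = 0.220). Both were higher in every alizarin library without a call, and at 30 hpf their estimates were -0.32 and -0.30. At 30 hpf 3 of the 12 transition zone estimates were above 0, and the median was -0.31.

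**Figure D3:**
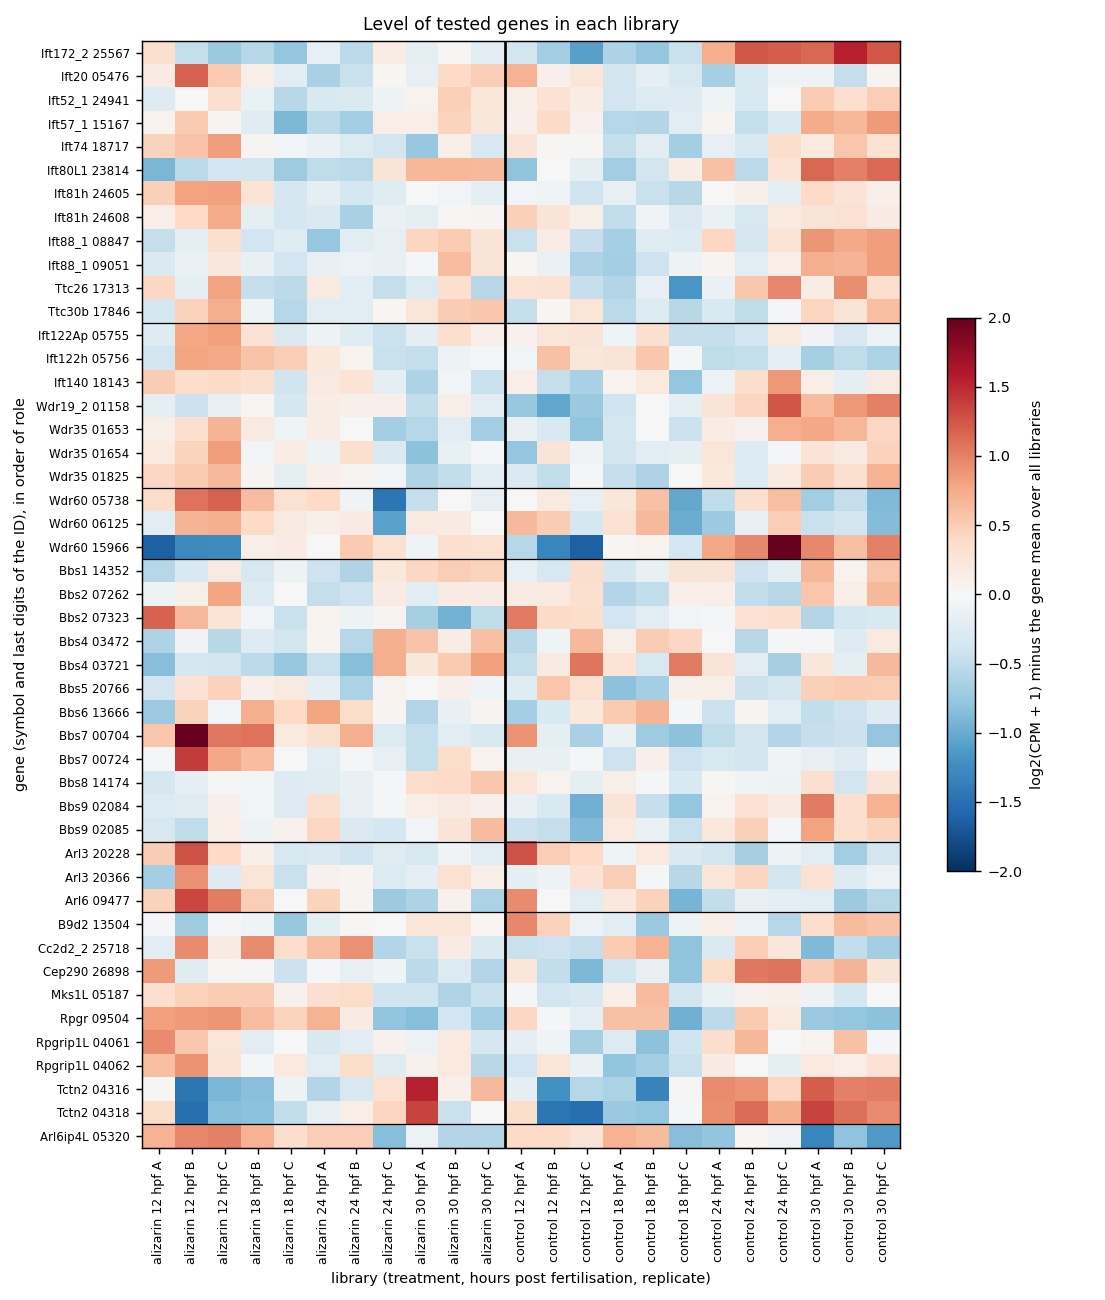
Each row is 1 of 47 members tested, grouped by role, and each column a library, alizarin left of control and by time. Colour gives log2(CPM + 1) minus the mean of that gene over the 23 libraries: within roles, neighbouring rows differ in their pattern, and the Ift57_1, Ift80L1 and Ift88_1 rows are highest in the control libraries of 30 hpf.

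Set against all genes, the members' counts read as follows. At 12 hpf 0 of 53 were called by edgeR, where 0.0977% of all genes were. An unadjusted p under 0.05 was found for 16 of 53 and for 16.1% of all genes, with 14 members higher and 2 lower. Of the 18419 genes tested, 1268 were higher and 1698 lower at that p. DESeq2 called 3 of 53 and 3.79% of all genes in either direction. The 3 members were all higher: Ift81h L_var_24605, Wdr35 L_var_01825 and Rpgrip1L L_var_04061. The median log2 fold change was 0.33 for the members and 0.02 for all genes tested, and 42 of the 53 estimates were above 0. All alizarin libraries lay above all controls for 16 members, against 7.12% of all genes, and below them for 1, against 6.16%.

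By role the 12 hpf medians were 0.72 for IFT-A, with 7 of 7 estimates above 0, 0.65 for the transition zone, 0.25 for IFT-B, 0.17 for the small GTPases, 0.14 for Wdr60 and 0.10 for the BBSome. Without control A the edgeR count was 2, Bbs7 L_var_00704 and Ift81h L_var_24605. The cytosolic ribosomal protein genes took 2.14, 2.34 and 4.12% of counts with alizarin at 12 hpf, against 2.54, 8.56 and 8.65% in controls, where control A was close to the alizarin libraries. The part of this in the members' levels was not tested.

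At 18 hpf 0 of 53 were called, where 0% of all genes were, and DESeq2 also called 0, with 0.277% of all genes. An unadjusted p under 0.05 was found for 4 of 53 and for 5.67% of all genes, 435 of the 18419 higher and 610 lower. Of the 4, Bbs7 L_var_00704 and Rpgrip1L L_var_04062 (0.85, SE 0.33, edgeR adjusted p = 0.752) were higher, and 2, Bbs4 L_var_03721 among them, were lower. The median was 0.13 for the members and -0.01 for all genes. With 2 alizarin libraries, 9 members lay wholly above the controls, against 11.1% of all genes, and 3 wholly below, against 10.3%.

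At 24 hpf 1 of 53 was lower, Ift172_2, where 0.722% of all genes were called lower and 0.119% higher. The unadjusted p was under 0.05 for 6 of 53, all lower, and for 11.8% of all genes, 1435 of the 18419 lower and 742 higher. DESeq2 called 1 of 53, again Ift172_2, and 2.74% of all genes in either direction. The median was -0.09, against 0.02 for all genes. The alizarin libraries lay wholly below the controls for 6 members, against 10.7% of all genes, and wholly above for 2, against 6.72%. The 6 were Ift172_2, Wdr19_2, Cep290, both IDs of Tctn2 and Wdr60 L_var_15966, and the 2 were Bbs6 and Bbs7 L_var_00704.

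At 30 hpf 4 of 53 were lower, where 2.2% of all genes were called lower, and 0 were higher, where 1.12% were. By role these were 1 of 12 IFT-B and 3 of 7 IFT-A IDs. The unadjusted p was under 0.05 for 9 of 53, 8 lower and 1 higher, and for 16.7% of all genes. Of the 18419 genes tested, 1798 were lower and 1273 higher at that p. DESeq2 called 5 of 53, all lower, and 6.46% of all genes in either direction. The median was -0.29, against 0.03 for all genes. The alizarin libraries lay wholly below the controls for 19 members, against 17.8% of all genes, among them 8 of 12 IFT-B and 4 of 7 IFT-A IDs, and wholly above for 7, against 14.5%. Medians by role were -0.80 for IFT-A, -0.43 for IFT-B, -0.31 for the transition zone, 0.10 for the BBSome, 0.14 for the small GTPases and 0.60 for Wdr60, and their signs held under each scaling tried.

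Averaged over the 4 times, 1 of 53 was higher, where 2.11% of all genes were, and 1 was lower, where 2.93% were. The difference of the effect between times was called for 2, Ift172_2 and Wdr35 L_var_01825, where it was called for 0.505% of all genes, and DESeq2's likelihood ratio test called 8 of 53 and 3.94% of all genes. The effect at 24 hpf minus that at 12 hpf was called for 0 of 53, where 0.114% of all genes were called. There the unadjusted p was under 0.05 for 10 of 53, all lower at 24 hpf, and for 13.1% of all genes. Of the 18419 genes tested, 1269 were lower and 1141 higher at that p. DESeq2 called 6 of 53 and 1.89% of all genes in either direction. The smallest p was that of Ift172_2 (-1.72, SE 0.38, edgeR adjusted p = 0.0819). The next were Ift81h L_var_24605 (-1.14, SE 0.29, edgeR adjusted p = 0.124), Rpgrip1L L_var_04061 (-1.47, SE 0.39, edgeR adjusted p = 0.129) and Cep290 (-1.61, SE 0.45, edgeR adjusted p = 0.148).

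Summed levels of some cell type markers were also apart between the groups at the late times, and others overlapped. Endoderm markers overlapped, at 1189 to 2565 CPM with alizarin at 24 hpf, against 1887 to 2800 CPM in controls. Their sums at 30 hpf were 1355 to 1716 CPM with alizarin, against 1333 to 1570 CPM in controls. Blastocoelar markers overlapped at 24 hpf. At 30 hpf they summed to 33.06 to 54.05 CPM with alizarin, against 25.62 to 27.27 CPM in controls. Skeletogenic markers summed to 1283 to 3093 CPM with alizarin at 30 hpf, against 5232 to 7411 CPM in controls, and pigment cell markers to 199 to 395 CPM, against 808 to 983 CPM. Markers of the ciliary band and apical ectoderm (FoxG, FoxQ2_1 and Onecut, 5 IDs) summed to 309 to 359 CPM with alizarin, against 177 to 199 CPM in controls. At 24 hpf the skeletogenic sum was 1058 to 1868 CPM with alizarin, against 5579 to 9945 CPM in controls, the pigment sum 689 to 1015 CPM, against 1873 to 2332 CPM, and the ciliary band sum 176 to 460 CPM, against 222 to 401 CPM. MyoR2 had 0.108 to 1.05 CPM with alizarin at 24 hpf, against 19.1 to 30.5 CPM in controls, and 0.228 to 4.32 CPM with alizarin at 30 hpf, against 9.58 to 17.9 CPM in controls. The part of these in the members' levels was not tested. Ribosomal protein genes took 26.04, 20.74 and 20.25% of counts with alizarin at 30 hpf, against 15.1, 18.66 and 17.16% in controls, with no overlap, and 10.48, 11.29 and 17.25% with alizarin at 24 hpf, against 14.86, 17.39 and 19.66% in controls. The TMM factor of alizarin 30 hpf A was 0.616, while those of the other 30 hpf libraries were 0.829 and 0.844 with alizarin and 0.814 to 0.880 in controls. Without that library Ift172_2 stayed called at 30 hpf (edgeR adjusted p = 0.0318) and Wdr19_2 and both called Wdr35 IDs did not. In whole embryos, fewer cells of a type and less RNA per cell cannot be told apart.

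In control embryos alone, 2 of 53 were lower at 18 than at 12 hpf, where 6.47% of all genes were. Bbs2 L_var_07323 had 84.8, 96.0 and 107 CPM at 18 hpf, against 229.9, 145 and 142 CPM at 12 hpf (log2 fold change -0.85, SE 0.25, edgeR adjusted p = 0.0238). Arl3 L_var_20228 had 41.3, 50.9 and 35.9 CPM at 18 hpf, against 108, 62.4 and 58.7 CPM at 12 hpf (-0.84, SE 0.27, edgeR adjusted p = 0.0435). Control A was the highest 12 hpf library of both, and without it neither was called (adjusted p = 0.141 for Bbs2 and 0.253 for Arl3). Both calls were also lost without control 18 hpf A (0.100 for Bbs2, 0.121 for Arl3), that of Bbs2 without control 18 hpf B (0.0638) and that of Arl3 without control 18 hpf C (0.128). The smallest p after these were those of B9d2 (-0.91, SE 0.32, edgeR adjusted p = 0.0611) and Wdr60 L_var_15966 (1.97, SE 0.71, edgeR adjusted p = 0.0670).

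Between 18 and 24 hpf 3 of 53 rose in controls, where 4.02% of all genes rose. Ift172_2 had 98.4, 140 and 138 CPM at 24 hpf, against 37.9, 34.2 and 43 CPM at 18 hpf (log2 fold change 1.71, SE 0.28, edgeR adjusted p = 0.000802). Cep290 had 30.0, 48.6 and 50.1 CPM at 24 hpf, against 17.6, 20.5 and 12.9 CPM at 18 hpf (1.33, SE 0.32, edgeR adjusted p = 0.0177). Wdr19_2 had 50.1, 56.5 and 101 CPM at 24 hpf, against 31.3, 41.6 and 36.5 CPM at 18 hpf (0.93, SE 0.25, edgeR adjusted p = 0.0349). All 24 hpf libraries were above all 18 hpf libraries in the 3 genes, which were picked by their call on these same libraries. The share of all genes apart in this way is not given. The next by p was Rpgrip1L L_var_04061 (0.89, SE 0.28, edgeR adjusted p = 0.0688).

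The rise of Ift172_2 held without any 1 of these libraries (adjusted p up to 0.0102). That of Wdr19_2 was lost without control 24 hpf C (0.245) and without control 18 hpf A (0.152), B (0.0734) or C (0.0745), and that of Cep290 without control 24 hpf B (0.0763) or C (0.0697) and control 18 hpf A (0.0725) or C (0.0695). These comparisons share the 24 hpf control libraries with the alizarin comparison at 24 hpf, so the same 3 libraries enter both differences. Over the 53 the median was 0.23, against -0.02 for all genes, with IFT-A at 0.42, IFT-B at 0.38, the transition zone at 0.34 and the BBSome at 0.01.

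Between 24 and 30 hpf 0 of 53 were called in controls, where 0.928% of all genes were. The unadjusted p was under 0.05 for 15 of 53, 9 higher and 6 lower, and for 14.1% of all genes. Of the 18419 genes tested, 1247 were higher and 1345 lower at that p. DESeq2 called 3 of 53, all higher, and 2.75% of all genes in either direction. The IFT-B median was 0.48, with 11 of 12 estimates above 0. Ift57_1 had the smallest p, with 149, 141 and 160.4 CPM at 30 hpf against 91.3, 63.3 and 72.0 CPM at 24 hpf (0.99, SE 0.25, edgeR adjusted p = 0.0612). Ift88_1 L_var_09051 followed with 0.76 (SE 0.23, edgeR adjusted p = 0.139), Ift80L1 with 0.92 (SE 0.30, edgeR adjusted p = 0.169) and Ift52_1, a core IFT-B subunit, with 0.59 (SE 0.20, edgeR adjusted p = 0.191).

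**Figure D4:**
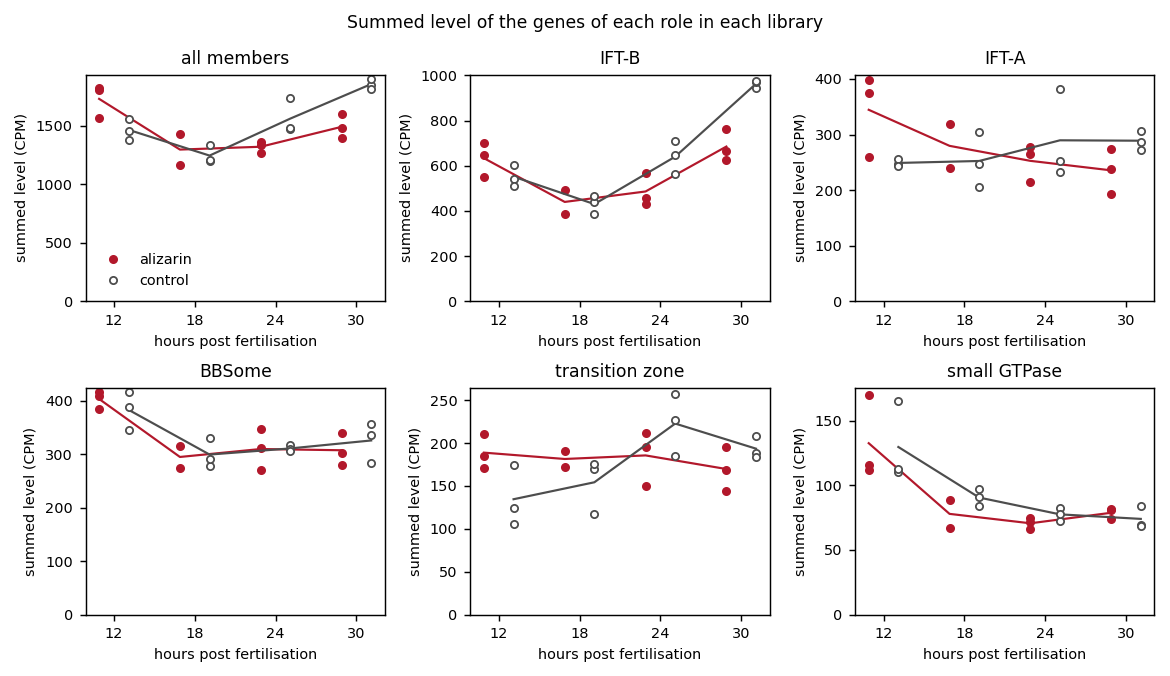
Summed CPM of the members (y axis) in every library by time (x axis), for all 55 and by role, alizarin left of control. Lines join group means. At 30 hpf the IFT-B sums with alizarin, 627.5 to 760.7 CPM, lie below the controls at 944.1 to 974.7 CPM, while the BBSome sums overlap.

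The members' CPM summed over all 55 followed these patterns. The sum was 1563, 1826 and 1803 with alizarin at 12 hpf, against 1562, 1459 and 1376 in controls, and 1433 and 1162 with alizarin at 18 hpf, against 1196, 1333 and 1208 in controls. It was 1337, 1266 and 1361 with alizarin at 24 hpf, against 1475, 1478 and 1735 in controls, and 1394, 1603 and 1478 with alizarin at 30 hpf, against 1852, 1818 and 1902 in controls. At 12 hpf alizarin A and control A were nearly equal, at 1563.4 and 1562.3 CPM, and alizarin B and C lay above every control. Alizarin libraries overlapped with the controls at 18 hpf and were below every control at 24 and 30 hpf. The sums weigh most the IDs of highest CPM, and how often sums of other genes part in this way was not tested. The IFT-B sums were 431.2 to 569.7 CPM with alizarin at 24 hpf, against 565.1 to 709.5 CPM in controls.

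Genes of the same pathway outside the rule, among them other transition zone genes, kinesin-2 subunits, distal appendage genes, and FoxJ1 and Rfx factors that drive ciliary genes, number 38, of which 35 were tested. None was called at 12 or 18 hpf, and 1 was higher and 0 were lower at both 24 hpf, where 0.119% of all genes were higher and 0.722% lower, and 30 hpf, where 1.12% were higher and 2.2% lower. The gene was Rab8 L_var_24857, whose symbol is that of a GTPase of vesicle traffic to the cilium, with 31.5 ± 2.56 CPM with alizarin at 24 hpf against 11.7 ± 0.970 CPM in controls (SD, n = 3 each; log2 fold change 1.43, SE 0.27, edgeR adjusted p = 0.0115). At 30 hpf it had 30.0 ± 8.67 CPM with alizarin against 12.8 ± 1.42 CPM in controls (SD, n = 3 each; 1.23, SE 0.27, edgeR adjusted p = 0.0151). The other ID of that symbol, Rab8 L_var_07330, gave -0.17 at 24 hpf (SE 0.23, edgeR adjusted p = 0.843) and -0.05 at 30 hpf (SE 0.23, edgeR adjusted p = 0.949). In control embryos Rab8 L_var_24857 fell by 1.62 on the log2 scale between 18 and 24 hpf (SE 0.27, edgeR adjusted p = 0.00108). The medians of the 35 were 0.03, 0.07, -0.06 and -0.05 at 12, 18, 24 and 30 hpf.

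FoxJ1, a master factor of motile ciliogenesis in vertebrates, had 157 ± 4.23 CPM with alizarin at 24 hpf against 327 ± 189.9 CPM in controls (SD, n = 3 each; -1.06, SE 0.31, edgeR adjusted p = 0.128). Its alizarin libraries lay above the controls at 12 hpf, at 156.9 to 186.3 CPM against 72.53 to 135.6 CPM. The same held at 18 hpf, at 141.7 to 156.0 CPM against 78.84 to 110.6 CPM. At 30 hpf they lay below, at 142.0 to 196.0 CPM against 198.0 to 262.9 CPM. FoxJ1 was not called between the groups at any time. In controls FoxJ1 rose between 18 and 24 hpf (1.81, SE 0.32, edgeR adjusted p = 0.00177). Rabl4, the symbol of the IFT-B GTPase IFT27 in mammals, and the transition zone gene Tmem67 L_var_04267 fell in controls between 12 and 18 hpf by 1.1 (SE 0.34, edgeR adjusted p = 0.0342) and 0.84 (SE 0.25, edgeR adjusted p = 0.0292) on the log2 scale.

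Genes of the motile axoneme (dynein arms, radial spokes, central pair, tektins) number 65, of which 61 were tested. Of these 0 were called at 12 and 18 hpf, 1 was lower at 24 hpf, where 0.722% of all genes were, and 14 were lower at 30 hpf, where 2.2% were, with none higher. The medians were 0.33, 0.13, -0.09 and -0.29 for the 53 members at 12, 18, 24 and 30 hpf, and 0.44, 0.22, -0.28 and -0.34 for the 61 axoneme genes. The difference of the effect between times was called for 2 of the 53 and for 9 of the 61. Whether the lists differ from each other was not tested.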

How the data were processed

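Total RNA of whole embryos was made into libraries with a DNBSEQ mRNA kit, per the labels' protocols, and reads were aligned with STAR 2.7.1a, per the submitters' processing notes. The genome build, the annotation and the counting tool are not given in the sources used here. Per the file headers, the deposited table holds raw counts for each gene in each library. Its 109578 lines repeat a gene for each protein match, and reduce to 27231 gene IDs with 0 conflicts. An ID with unreadable counts was left out, and 4 empty columns were dropped.

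Counts were filtered with filterByExpr (minimum count 10, 8 groups), scaled with TMM and fitted with edgeR 4.0.16 (robust quasi-likelihood, R 4.3.3) as 8 group means over 23 libraries, with 15 residual degrees of freedom and a common biological coefficient of variation of 0.423. P-values were adjusted by Benjamini-Hochberg over 18419 genes. SE is the fold change over the root of F. The script was tested on simulated data. The alternatives were RLE and upper quartile scaling, DESeq2 1.42.0, no filter, replicate blocks, fits of only the groups compared, and each library left out.

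The members and lists were chosen with earlier results of these data known. Named with values are the members called, those of smallest p up to 4 where fewer were called, and that of highest CPM per role, taken without gene length. DESeq2 shares are of the same 18419 genes, with genes it leaves without an adjusted p counted as not called. Members named beyond these were chosen after their values were seen. Some members are not reported here by name, though the counts, medians and sums include them. Same-letter libraries deviated together at 30 hpf (r = 0.503, 0.663 and 0.570), as tested across genes on deviations from group means, and not at 12 hpf (-0.022 to 0.128), 18 hpf (0.082 and 0.112) or 24 hpf (-0.242 to 0.192). The pairing at 30 hpf is thus a pattern of the data, not of the labels.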

Additional observations from a re-analysis of the deposited data

Results flagged for a closer look

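The effect of alizarin differed between the 4 times for 2 members by edgeR's quasi-likelihood F test. For Ift172_2 the adjusted p was 0.0402, with log2 fold changes of 0.47, -0.06, -1.25 and -1.46 at 12, 18, 24 and 30 hpf. For Wdr35 L_var_01825 the adjusted p was 0.0457, with 0.82, 0.29, -0.03 and -0.99. Single libraries that stand apart were not tested for, as groups hold 2 or 3 libraries.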

How the results depend on the processing

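All counts here are members called of 53. Shares of all genes stand beside the DESeq2 counts only, so the other counts in this section are not set against all genes. With DESeq2 the counts were 3 at 12 hpf (3.79% of all genes), 5 at 30 hpf (6.46%) and 3 for the mean of the times (9.28%). They were 8 for the difference between times (3.94%) and 6 for the effect at 24 minus that at 12 hpf (1.89%). In controls they were 5 (18 against 12 hpf, 18.6% of all genes), 7 (24 against 18, 8.74%) and 3 (30 against 24, 2.75%). With upper quartile scaling they were 0 at 24 hpf (Ift172_2 at adjusted p = 0.0505), 1 for the difference between times and 1 for control 18 against 12 hpf, where RLE size factors also gave 1. With no filter on low counts they were 1 for the difference between times, 1 for control 18 against 12 hpf and 2 for control 24 against 18 hpf. In fits of only the 2 groups compared they were 0 at 24 hpf, 5 at 30 hpf, 0 for control 18 against 12 hpf and 1 for control 30 against 24 hpf.

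The replicate block over all times gave 1 at 12 hpf (Ift81h L_var_24605) and 4 for control 24 against 18 hpf, and the block within times gave 1 for the difference between times. At 30 hpf, where same-letter libraries pair, both blocks gave 4, within times with Cep290 in place of Wdr35 L_var_01653. The pairing changed no other count at 30 hpf.

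Leaving out 1 library gave 0 to 2 at 12 hpf, 0 at 18 hpf, 0 to 1 at 24 hpf, 1 to 2 at 30 hpf, 0 to 4 for the mean of the times, 0 to 4 for the difference between times and 0 to 2 for the effect at 24 minus that at 12 hpf. The mean of the times gave 4 without alizarin 12 hpf A, 1 without alizarin 18 hpf C and 0 without alizarin 18 hpf B, and without control 12 hpf A the difference between times gave 4 and the effect at 24 minus that at 12 hpf gave 2. In controls, leaving out 1 library gave 0 to 3 (18 against 12 hpf), 1 to 4 (24 against 18) and 0 (30 against 24). The members' median at 18 hpf ranged up to 0.2496 (without control B) and turned to -0.0012 without alizarin B. The IFT-A median at 24 hpf, -0.07, was 0.0042 with upper quartile scaling. No scaling moved the median of all genes by over 0.1. The cause of these shifts was not tested. Depth limits the members of few counts most: the largest SE of a difference at 1 time was 0.85, for Wdr60 L_var_15966 at 12 hpf.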
